A study of Mus musculus with 18 samples.

Results

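The 6 genes described here encode the peptides of the neuropeptide Y family, a receptor for them and minor peptides of the islet, and they were taken by gene symbol from the deposited count tables. They are Npy, Ppy, Pyy, Npy1r, Sct and Ghrl, 6 of 53801 listed mouse genes, and all 6 were among the 18364 genes that passed a filter on low counts and were tested. RNA-seq had been done on whole islets of Langerhans, isolated from 5-week-old mice kept on normal chow. Wild-type (WT) mice were compared, within each sex, with mice heterozygous for MafA S64F (S64F/+), an amino acid change in a transcription factor that beta cells use to express insulin. Males gave 4 libraries of each genotype and females 5, which makes 18. Nothing in the labels says whether a replicate is its own animal, and p-values therefore measure only the spread between libraries, which may be technical.

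Neuropeptide Y, peptide YY and pancreatic polypeptide are short amidated peptides with a common fold that act on one family of G protein-coupled receptors. In the islet, pancreatic polypeptide marks the PP (or gamma) cell, peptide YY is made by several islet cell types, and neuropeptide Y is found in sympathetic nerve fibres and in beta cells of young or stressed islets, where it restrains insulin release through the Y1 receptor. Secretin and ghrelin are best known from endocrine cells of the gut, and ghrelin also marks the rare epsilon cell of the islet.

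MafA binds MAF recognition elements in DNA, of which TGCTGA is the half-site. The 250 bases upstream of the RefSeq start sites (build GRCm38.p6, read 5′ to 3′ on the strand of the gene) are shown for the 3 ligands of the family, whose levels carry the main results. All 6 genes had an entry. Capitals mark TGCTGA and the TATA box TATAAA. Also searched were the AP-1 site TGACTCA, the cAMP response element TGACGTCA, the E-box CANNTG and the homeodomain core TAATTA. All motifs were read on both strands. The Npy window is chr6:49822460-49822709 on the plus strand, the Ppy window chr11:102101320-102101569 and the Pyy window chr11:102107833-102108082, both on the minus strand.
Npy: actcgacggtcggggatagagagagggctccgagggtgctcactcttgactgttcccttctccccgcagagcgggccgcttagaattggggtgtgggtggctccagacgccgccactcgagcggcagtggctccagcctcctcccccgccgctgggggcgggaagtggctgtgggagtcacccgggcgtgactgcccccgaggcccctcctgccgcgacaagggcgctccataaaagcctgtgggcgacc
Ppy: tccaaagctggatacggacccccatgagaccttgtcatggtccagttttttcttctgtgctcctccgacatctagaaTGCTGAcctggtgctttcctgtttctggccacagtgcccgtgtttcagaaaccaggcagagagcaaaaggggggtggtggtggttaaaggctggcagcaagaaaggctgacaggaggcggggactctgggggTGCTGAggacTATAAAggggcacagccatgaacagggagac
Pyy: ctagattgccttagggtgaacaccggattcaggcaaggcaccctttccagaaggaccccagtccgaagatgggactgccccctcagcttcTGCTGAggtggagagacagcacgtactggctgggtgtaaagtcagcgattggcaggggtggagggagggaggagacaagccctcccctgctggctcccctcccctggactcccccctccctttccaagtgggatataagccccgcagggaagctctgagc
The Ppy window held TGCTGA at 173 and at 41 bases before the start and TATAAA at 31 bases before it. The Pyy window held 1 TGCTGA, at 160 bases before the start, and an E-box at 36 bases before it. None of the 6 motifs was found in the Npy window. TGCTGA was present in 16.1% of 32817 promoter windows of the same length, TATAAA in 12.4%, TGACTCA in 4.46%, TGACGTCA in 1.55%, CANNTG in 66.2% and TAATTA in 4.85%. These matches only describe the sequence. Of the remaining genes, Sct had TATAAA at 28 bases before the start and 3 E-boxes. Npy1r had TGAGTCA, the AP-1 site on the other strand, at 231 bases before it and an E-box at 60 bases. Ghrl had E-boxes at 233, 158 and 140 bases before the start. For Npy1r and Ghrl no RefSeq start equalled the annotated 5′ end of the gene, and the nearest was used. Most of the Npy1r window lies within the annotated gene, and no annotated transcript directly follows the Ghrl window.

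Library totals ranged from 19.3 to 108.7 M counts with a median of 42.4 M, and the correlation across genes between replicates was 0.960 to 0.988. The islet identity of the preparations was clear from Ins1 and Ins2, the insulin genes, which were at 27807 CPM (counts relative to a library size scaled by the trimmed mean of M values, TMM) or more in every library. Mafa itself was at 492 to 1008 CPM in WT and at 104 to 267 CPM in S64F/+ libraries. The S64F/+ preparations of males also differed in other cell types. The summed level of 13 pericyte, smooth muscle and stellate markers was 267 to 563 CPM in male WT and 1453 to 2089 CPM in male S64F/+ libraries, against 353 to 842 and 312 to 986 CPM in females. Male WT replicate 2 and male S64F/+ replicate 3 stood apart in carrying intestinal epithelium genes. The 10 genes of that list, written after the values of Sct had been seen, summed to 691 and 1057 CPM in these libraries and to at most 12.6 CPM in the others. In bulk RNA, more cells of a type and more RNA per cell cannot be told apart, which holds for every difference below.

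By log2 fold change of S64F/+ over WT, 5 of the 6 genes lay above 0 in males and all 6 in females, with medians of 1.16 and 1.28 against -0.03 and 0.02 over all genes tested. In edgeR's quasi-likelihood test with Benjamini-Hochberg adjustment, 2 of the 6 rose in males (Npy and Npy1r), where 15.4% of all tested genes were called higher. In females 4 of the 6 rose (Npy, Ppy, Pyy and Sct), where 10.2% of all tested genes were called higher. None of the 6 fell in either sex, where 12.3% and 11% of tested genes were called lower. Npy was the single member called higher in both sexes, as were 4.23% of tested genes.

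**Figure D1:**
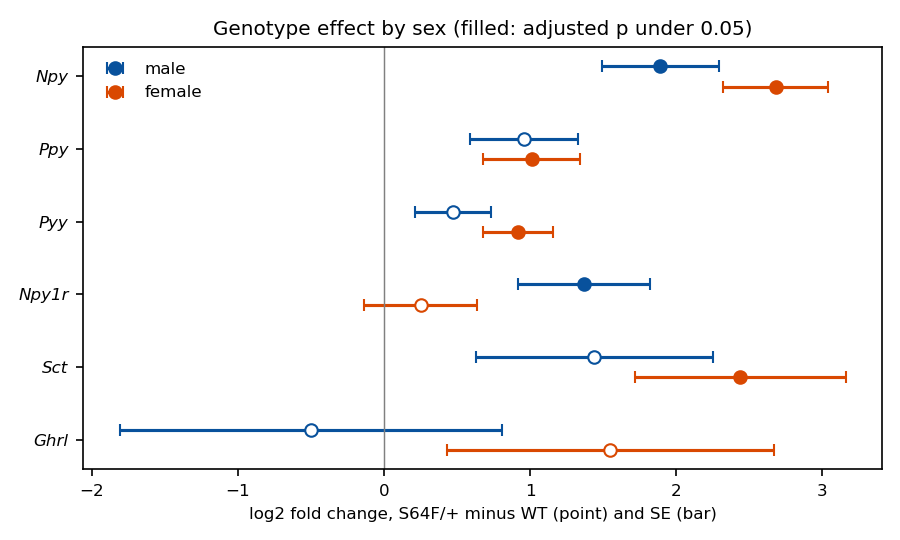
Log2 fold change of S64F/+ over WT (x axis) with its standard error for the 6 genes (y axis), in males (blue) and females (orange), with filled points where the adjusted p was under 0.05. Npy lies far from 0 in both sexes (1.89 and 2.68), Npy1r is filled in males and Ppy, Pyy and Sct in females.

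Npy (ENSMUSG00000029819, chr6:49822710-49829507, plus strand, GENCODE M21 on GRCm38), which encodes neuropeptide Y, had the smallest adjusted p of the 6 genes in both sexes. The male WT libraries held 5.20, 17.2, 24.0 and 30.0 CPM. The male S64F/+ libraries held 55.6, 85.8, 46.3 and 98.1 CPM. All 4 S64F/+ males lay above all 4 WT males, a 3.71-fold rise (log2 fold change 1.89 ± 0.40 SE, adjusted p = 0.00238, edgeR). In female WT libraries Npy was at 21, 33.1, 45.7, 26.1 and 26.9 CPM. In female S64F/+ libraries it was at 261, 203, 165, 188 and 159 CPM. The lowest female S64F/+ library lay at 3.49 times the highest WT library, and the rise was 6.42-fold (2.68 ± 0.36 SE, adjusted p = 9.37e-05, edgeR). Both calls were kept when each of the 18 libraries was left out in turn. Ranges apart in this direction were seen for 17.8% of tested genes in males and 5.28% in females.

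The rise was larger in females on the log2 scale, but the difference of the male and the female effect was not called (-0.79 ± 0.52 SE, adjusted p = 0.366, edgeR). Within S64F/+ islets, Npy was 2.74-fold lower in males than in females (-1.45 ± 0.37 SE, adjusted p = 0.0185), where 8.12% of tested genes were called lower, and the ranges were apart, as for 16.2% of tested genes. That call was lost without male S64F/+ replicate 1 or replicate 3 (adjusted p = 0.0591 in each case). It was also lost without both libraries that carried intestinal genes (-1.29, adjusted p = 0.0687). In WT islets the sexes overlapped and no difference was called (-0.66 ± 0.37 SE, adjusted p = 0.375).

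Markers of nerve fibres are given beside Npy because neurons make this peptide. Of 10 neuron markers, Dbh (a noradrenaline-synthesis enzyme) was called higher in males and Th (tyrosine hydroxylase, which beta cells also express) lower in both sexes. Their summed level was 272 to 331 CPM in male WT, 282 to 427 in male S64F/+, 272 to 378 in female WT and 202 to 508 in female S64F/+ libraries. The call of Dbh was lost under the replicate block (adjusted p = 0.091) and without male WT replicate 1, 2 or 4, male S64F/+ replicate 1, 2 or 4, female WT replicate 2 or female S64F/+ replicate 4 (0.0503 to 0.106). The gene was at 0 in male WT replicates 1 and 2 and at most at 1.49 CPM in any library. Prph, an intermediate filament protein of peripheral neurons, was at 8.26 CPM in female S64F/+ replicate 1, which had the highest Npy (261 CPM), and at 75.0 CPM in replicate 3, which had 165 CPM of Npy. In males Prph was at 1.71 to 13.9 CPM in WT and 17.5 to 51.1 CPM in S64F/+ libraries. Th was at 44.4 to 60.0 CPM in female WT and 5.6 to 14.6 CPM in female S64F/+ libraries. The part of nerve fibres in the rise of Npy was not tested in either sex.

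Markers of immature or dedifferentiated beta cells, a list that holds Npy and Pyy, moved with Npy in both sexes. Of its 10 genes 5 rose in males and 6 in females, and none fell. Npy, Sox9, Cd81 and Rbp4 rose in both sexes. Some of the listed genes mark other cells too, such as Sox9, which marks duct cells. The 8 genes other than Npy and Pyy summed to 291 to 457 CPM in male WT and 501 to 667 CPM in male S64F/+ libraries, and to 347 to 422 CPM in female WT and 677 to 807 CPM in female S64F/+ libraries. The genotypes were apart in this sum in both sexes, and its part in the rise of Npy was not tested.

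**Figure D2:**
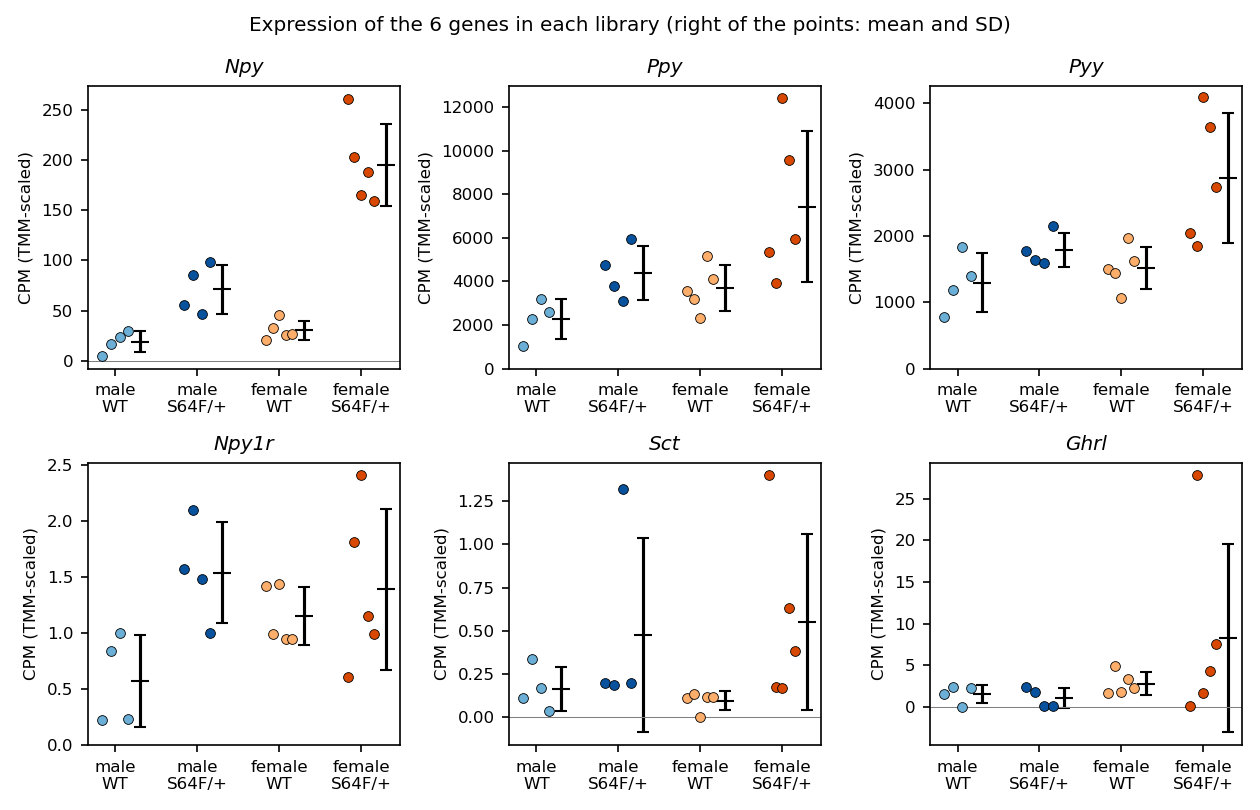
CPM of each gene (y axis, linear, a separate scale per panel) in every library of the 4 groups (x axis), with the mean and SD to the right of the points. Npy separates the genotypes in both sexes, Ppy and Pyy overlap, and single libraries stand far above their groups for Sct (1.32 CPM in male S64F/+) and Ghrl (27.8 CPM in female S64F/+).

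Ppy (ENSMUSG00000017316, chr11:102099930-102101319, minus strand) encodes pancreatic polypeptide and was the most abundant of the 6, ranking 8th of all listed genes by mean CPM. Male WT libraries held 1016, 2290, 3180 and 2592 CPM. Male S64F/+ libraries held 4733, 3808, 3098 and 5966 CPM. The lowest S64F/+ male lay just under the highest WT male, and the difference was not called (0.96 ± 0.37 SE, adjusted p = 0.0654, edgeR). It did pass with DESeq2 (0.97, adjusted p = 0.0361), with plain library totals (1.17, adjusted p = 0.0152), without male WT replicate 3 (adjusted p = 0.0471) and without female S64F/+ replicate 2 or 3 (0.0449 and 0.0444). Under plain totals, however, the median log2 fold change of all genes in males moved from -0.03 to 0.19.

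In females, Ppy was at 3576, 3203, 2341, 5180 and 4097 CPM in WT libraries. The S64F/+ libraries held 5366, 3912, 12401, 9550 and 5947 CPM. Replicates 3 and 4 carried the highest levels, replicate 2 lay within the WT range, and Ppy was called 2.02-fold higher (1.01 ± 0.33 SE, adjusted p = 0.0382, edgeR). The call was not robust. It was lost with the replicate number as a block (0.92, adjusted p = 0.1), and without female WT replicate 1, 2, 3 or 5 or female S64F/+ replicate 3 or 4 (adjusted p = 0.0756, 0.08, 0.0861, 0.058, 0.122 and 0.086). The male and female effects differed by -0.06 ± 0.49 SE (adjusted p = 0.958), and neither sex contrast was called for Ppy.

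Pyy (ENSMUSG00000017311, chr11:102106676-102107832, minus strand), the gene of peptide YY, ranked 23rd by mean CPM. It was at 773, 1178, 1834 and 1389 CPM in male WT libraries. In male S64F/+ libraries it was at 1766, 1641, 1595 and 2147 CPM. These ranges overlapped and no difference was called (0.47 ± 0.26 SE, adjusted p = 0.206), except with plain library totals (0.69, adjusted p = 0.0335). That setting also moved the male median log2 fold change of all genes from -0.03 to 0.19. Female WT libraries held 1493, 1439, 1066, 1963 and 1618 CPM. Female S64F/+ libraries held 2046, 1841, 4093, 3634 and 2742 CPM, of which only replicate 2 lay within the WT range. The rise in females was 1.89-fold (0.92 ± 0.24 SE, adjusted p = 0.01, edgeR) and was called in all 18 fits that left out 1 library and under the replicate block (0.87, adjusted p = 0.0237). The difference between the male and the female effect was not called (-0.46 ± 0.35 SE, adjusted p = 0.449). Within S64F/+ islets Pyy was at a lower mean in males, a difference that edgeR did not call (-0.68 ± 0.25 SE, adjusted p = 0.0703) and DESeq2 did (-0.67, adjusted p = 0.0301).

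Ppy and Pyy are neighbours, 5356 bases apart on the minus strand of chromosome 11, and their levels went together library by library. Deviations from the group means of log2 CPM correlated at 0.96 over the 18 libraries, which share their depth and cell make-up, and among 13138 genes compared Pyy was the gene most like Ppy. The longest run of bases common to their transcripts was 10. The next most like genes were Dct (0.90 with Ppy) and Ube2e3 (0.896), neither of which was called in either sex. Npy went with neither of them closely (0.36 with Ppy and 0.27 with Pyy). Per kb of merged exons, Ppy exceeded Pyy by 1.66 to 2.45 times in male WT, 2.45 to 3.51 in male S64F/+, 2.77 to 3.33 in female WT and 2.68 to 3.82 in female S64F/+ libraries. The ratio was thus lowest in male WT islets, at or below the lowest value of male S64F/+ islets.

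**Figure D3:**
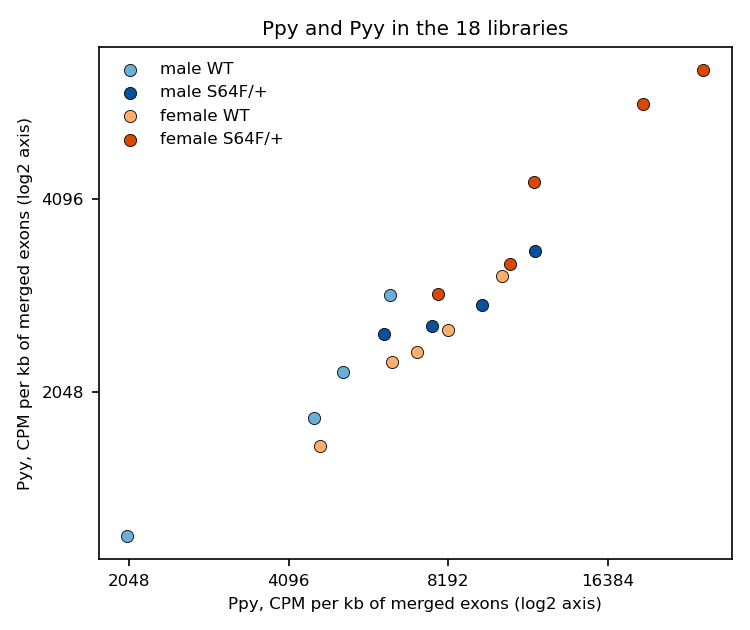
Ppy (x axis) against Pyy (y axis), both in CPM per kb of merged exons on log2 axes, with a point for each of the 18 libraries coloured by group. The points run along one diagonal, with female S64F/+ replicates 3 and 4 at its upper end and a male WT library at its lower end.

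The remaining PP-cell markers differed in what they did. The 7 markers of that list other than Ppy and Pyy summed to 213 to 233 CPM in male WT, 238 to 274 in male S64F/+, 223 to 247 in female WT and 271 to 292 in female S64F/+ libraries. Etv1, a transcription factor, was called higher in both sexes (0.39 ± 0.10 and 0.75 ± 0.09 SE, adjusted p = 0.0067 and 9.34e-06, edgeR), although the male call was lost without both libraries with intestinal genes (0.27, adjusted p = 0.0836). Ptgfr and Abcc9 were called higher in males, where the pericyte and stellate markers were higher too, and Aqp3 was called in neither sex. Over the 9 listed genes, 3 rose in males (Etv1, Ptgfr and Abcc9), 3 rose in females (Ppy, Pyy and Etv1) and none fell, with medians of 0.47 in males and 0.48 in females. Etv1 was thus the single marker besides Ppy and Pyy that was called in females. Alpha cells also express Pyy, and the alpha-cell markers summed to 34669 to 43006 CPM in female WT and 60487 to 83799 CPM in female S64F/+ libraries. The delta-cell markers summed to 2859 to 4337 CPM in female WT and 6210.4 to 8344 CPM in female S64F/+ libraries. Their part in the female rise of Ppy and Pyy was not tested.

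Npy1r (ENSMUSG00000036437, chr8:66697192-66706792, plus strand), the Y1 receptor, was measured near the lower limit, with 4 to 158 counts a library. Male WT libraries held 0.221, 0.842, 0.998 and 0.228 CPM. Male S64F/+ libraries held 1.57, 2.10, 1.48 and 1.00 CPM. The ranges were barely apart and Npy1r was called 2.58-fold higher (1.37 ± 0.45 SE, adjusted p = 0.0308, edgeR). The call was lost without male WT replicate 1 or 4 (adjusted p = 0.0884 and 0.0988) and without male S64F/+ replicate 1, 2 or 3 (0.0577, 0.0865 and 0.0505). Female WT libraries held 1.42, 0.988, 1.44, 0.947 and 0.945 CPM. Female S64F/+ libraries held 0.603, 1.81, 2.41, 1.15 and 0.989 CPM, on both sides of the WT values, and no difference was called (0.25 ± 0.39 SE, adjusted p = 0.693). The difference between the sexes' effects was not called either (1.11 ± 0.59 SE, adjusted p = 0.257).

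Blood vessel and nerve cells also carry the Y1 receptor, and the vessel markers moved with it in males. Of the 10 neuron markers, only Dbh was called higher in males and Th was called lower. Of 10 endothelial markers 6 rose and 1 fell, and their sum was 547 to 776 CPM in male WT and 985 to 1161 CPM in male S64F/+ libraries. Of 13 pericyte, smooth muscle and stellate markers 12 rose in males and 1 in females. No endothelial or pericyte marker was at 0 throughout a group. Within groups, deviations of Npy1r correlated at 0.71 with the endothelial sum and 0.70 with Prph over 18 libraries, as a description. Their part in the male call of Npy1r was not tested. The other 4 receptors of the family were below the filter. Npy6r had 0 counts in all 18 libraries, which allows at most 0.166 CPM in the shallowest. Npy5r was at 0 in 15 libraries, Npy2r in 13, and Npy4r reached 0.369 CPM at most.

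Sct (ENSMUSG00000038580, chr7:141278330-141279133, minus strand) encodes secretin, and its 0 to 65 counts a library made it the least expressed of the 6 by mean CPM. Male WT libraries held 0.111, 0.337, 0.166 and 0.038 CPM. Male S64F/+ libraries held 0.200, 0.185, 1.32 and 0.196 CPM. The highest library of each male group was the one with intestinal genes, male WT replicate 2 (Alpi, intestinal alkaline phosphatase, 163 CPM) and male S64F/+ replicate 3 (254 CPM). No male difference was called (1.44 ± 0.81 SE, adjusted p = 0.205), and the log2 fold change was 0.15 without male S64F/+ replicate 3 and 0.85 without both libraries. Female WT libraries held 0.108, 0.133, 0, 0.118 and 0.118 CPM, where the 0 in replicate 3 allows up to 0.123 CPM. Female S64F/+ libraries held 1.40, 0.176, 0.166, 0.634 and 0.385 CPM, all above the WT range, as for 5.28% of tested genes. Replicates 2 and 3 were barely above it, with 4 counts each, against 9 counts in the highest WT library (0.133 CPM). In these replicates 3 counts equal 0.132 and 0.125 CPM, so counting error alone could close the gap.

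Sct was called 5.43-fold higher in female S64F/+ islets (2.44 ± 0.72 SE, adjusted p = 0.0218, edgeR). Without female S64F/+ replicate 1 the value was 1.77 (adjusted p = 0.0708), and without female WT replicate 1 it was 2.46 (0.0504). Replicate 1 of female S64F/+ also had the highest intestinal sum of the females, 12.6 CPM against 0.249 to 6.26 CPM in the rest, with Alpi at 2.65 CPM and with Cdx2, an intestinal transcription factor, at 0. Without the pair of male libraries the female call was kept (2.44, adjusted p = 0.00722). Without all 3 libraries Sct no longer passed the filter and was not tested. Over the 18 libraries, deviations of Sct from the group means correlated at 0.76 with the sum of the 6 tested genes of the intestinal list. That list was written after the values of Sct had been seen, so this value is only a description. The other strongest correlations among the marker lists and genes compared were 0.80 with Th, -0.69 with the duct sum and -0.66 with the acinar sum. In the gene-by-gene comparison its most like genes were Dyrk1b (0.907) and Tff3 (0.877), the latter a mucosal peptide on the intestinal list. Cdhr5, a gut microvillus gene, is also its neighbour on chromosome 7, 1543 bases away. The part of intestinal RNA in the female result was not tested.

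**Figure D4:**
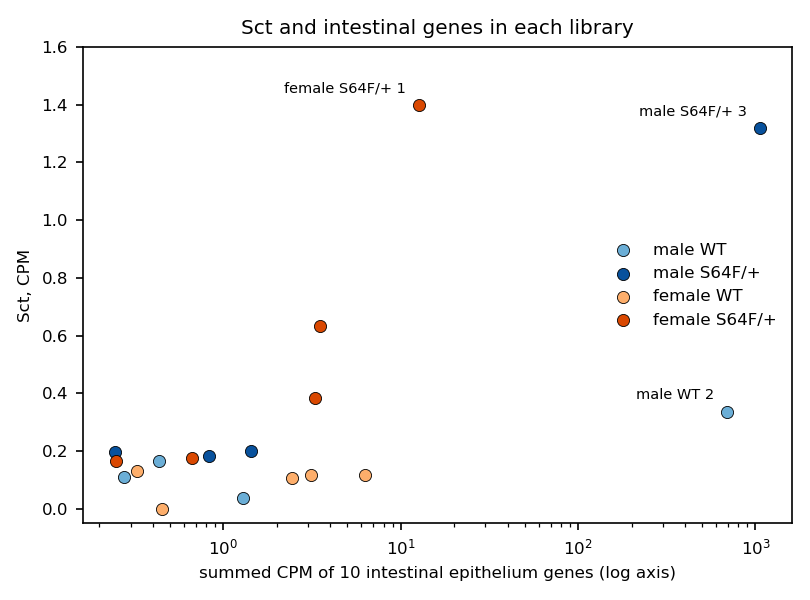
Sct in CPM (y axis) against the summed CPM of 10 intestinal epithelium genes (x axis, log scale) in each of the 18 libraries. The libraries at 691 and 1057 CPM of intestinal genes are male WT replicate 2 and male S64F/+ replicate 3, while female S64F/+ replicate 1 combines 12.6 CPM with the highest Sct, 1.40 CPM.

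Ghrl (ENSMUSG00000064177, chr6:113716119-113719880, minus strand), the ghrelin gene, varied widely within groups. Male WT libraries held 1.49, 2.33, 0 and 2.24 CPM, where the 0 allows up to 0.0998 CPM. Male S64F/+ libraries held 2.37, 1.73, 0.101 and 0.073 CPM. Both male groups thus joined libraries near 2 CPM with libraries at or close to 0, and no difference was called (-0.50 ± 1.31 SE, adjusted p = 0.82). Female WT libraries held 1.63, 4.94, 1.72, 3.31 and 2.27 CPM. Female S64F/+ libraries held 0.043, 27.8, 1.62, 4.25 and 7.51 CPM, from far below to far above the WT range. The female difference was not called (1.55 ± 1.12 SE, adjusted p = 0.361) and was 0.31 without replicate 2 of female S64F/+. The antisense gene Gm26982 reaches only a few bases into the end of Ghrl and was at 2.75 to 3.20 CPM on average in the 4 groups. Gm44033, on the opposite strand, lies wholly within Ghrl and was at 0.227 to 0.395 CPM on average. No strand setting of the counting is given in the sources used here. Epsilon-cell markers other than Ghrl are shared with other islet cells, and Mboat4, the enzyme that acylates ghrelin, was at 0.366 CPM or less in every library.

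Per kb of merged exons, the order of mean levels was Ppy, Pyy, Npy and Ghrl in all 4 groups, with Sct and Npy1r last. In female S64F/+ islets the means were 14871 ± 6931 for Ppy, 4550.3 ± 1552 for Pyy, 345 ± 72.5 for Npy, 7.64 ± 10.5 for Ghrl, 0.856 ± 0.791 for Sct and 0.403 ± 0.207 CPM per kb for Npy1r (SD, n = 5). In male WT islets they were 4539 ± 1827, 2050.0 ± 700.0, 33.8 ± 18.8, 1.41 ± 1.00, 0.253 ± 0.197 and 0.166 ± 0.118 CPM per kb (SD, n = 4), in the same order of genes. Ppy and Pyy overlapped in male WT libraries and were apart in the other 3 groups. Ghrl, Sct and Npy1r could not be ordered beyond their spread, except in female WT islets. The gap between Npy and Pyy narrowed with genotype, from 60.7 to 22.4 times in males and from 44.5 to 13.2 times in females, as ratios of these means.

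In the comparison of the sexes within WT islets, none of the 6 genes was called by edgeR or DESeq2, and 1 (Npy1r) had an unadjusted p under 0.05, where 2.36% of tested genes were called. No member was called in the test of a difference between the male and the female genotype effect, with none under an unadjusted 0.05 and none by DESeq2, where 4.47% of tested genes were called.

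The receptors that secretin, ghrelin and related peptides act on moved in both directions. Of 9 tested genes of this list, 2 rose and 3 fell in males, 1 rose and 4 fell in females, and the medians were -0.13 and -0.06. Sctr, the secretin receptor and a marker of duct cells, was at 0.0722 to 0.133 CPM in male WT and 0.828 to 1.38 CPM in male S64F/+ libraries (3.57 ± 0.40 SE, adjusted p = 4.48e-06, edgeR). In females it was at 0.246 to 0.425 and 0.301 to 0.838 CPM and was not called (0.30 ± 0.31 SE, adjusted p = 0.672). Its effects differed between the sexes (3.27 ± 0.51 SE, adjusted p = 0.00434, edgeR). Of 11 duct markers, 7 rose in males and 4 in females, and none fell. Their sum, Sctr included, was 585 to 650.1 CPM in male WT and 856 to 1028 CPM in male S64F/+ libraries, and its part in the rise of Sctr was not tested.

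Ghsr, the ghrelin receptor, which delta cells carry, rose in both sexes (0.87 ± 0.30 and 0.93 ± 0.27 SE, adjusted p = 0.0395 and 0.0199, edgeR), and both calls were lost under the replicate block (0.0791 and 0.0885). The male call was also lost without any 1 of male WT replicates 1 to 4 or male S64F/+ replicates 1, 3 and 4 (adjusted p = 0.0515 to 0.104), and the female one without replicate 1 of either genotype (0.0573 for WT and 0.0502 for S64F/+). The receptors for the incretins and glucagon fell in both sexes. Glp1r fell by 1.61 in males and by 1.81 in females on the log2 scale, Gipr by 1.27 and 1.28, and Gcgr by 1.80 and 1.69. Vipr2, a receptor for vasoactive intestinal peptide, was called lower in females (-1.16 ± 0.26 SE, adjusted p = 0.00413, edgeR).

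**Figure D5:**
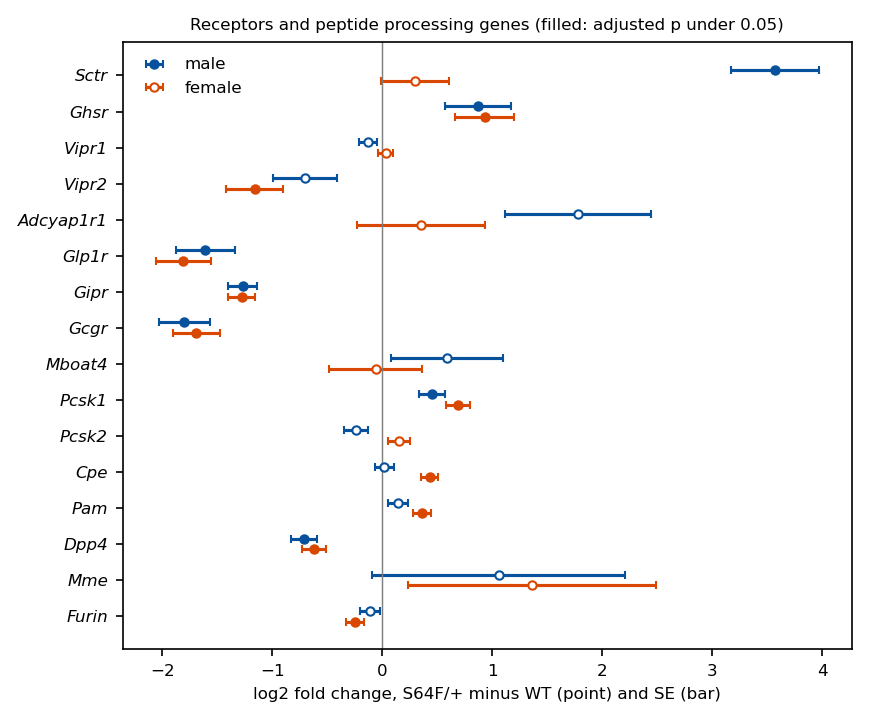
Log2 fold change of S64F/+ over WT (x axis) with its standard error for receptors and peptide processing genes (y axis), in males (blue) and females (orange), with filled points where the adjusted p was under 0.05. Sctr stands out in males alone (3.57 against 0.30), Glp1r, Gipr and Gcgr lie below 0 in both sexes, and Pcsk1 lies above 0 in both.

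Enzymes that mature these peptides changed by smaller amounts. Of 14 tested processing genes, 1 rose and 2 fell in males, 4 rose and 2 fell in females, and the medians were -0.02 and 0.19. Pcsk1, a prohormone convertase, rose in both sexes (0.45 ± 0.12 and 0.69 ± 0.11 SE, adjusted p = 0.00954 and 0.000196, edgeR). Cpe, the carboxypeptidase that trims their basic ends, and Pam, the enzyme that amidates peptides of this family, rose in females (0.43 ± 0.08 and 0.36 ± 0.08 SE, adjusted p = 0.00133 and 0.00314). Dpp4, the peptidase that shortens neuropeptide Y and peptide YY, fell in both sexes (-0.71 ± 0.12 and -0.62 ± 0.11 SE, adjusted p = 0.000349 and 0.000547).

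Among 18 tested genes for other islet and gut peptides, 2 rose and 3 fell in males and 3 rose and 2 fell in females. Gcg (glucagon) and Sst (somatostatin) rose in females along with Ppy and Pyy, by 2.00- and 2.20-fold (adjusted p = 3.34e-05 and 0.000245, edgeR). Iapp (islet amyloid polypeptide) and Ucn3 (urocortin 3), which beta cells make, fell in both sexes. Penk (proenkephalin) rose in males from 1.16 ± 0.317 to 7.14 ± 2.67 CPM (SD, n = 4 and 4; 2.61 ± 0.58 SE, adjusted p = 0.00265, edgeR). Rab3c, a vesicle-trafficking GTPase, was the gene whose levels were most like those of Npy (0.869 over 18 libraries) and rose in both sexes (1.55 ± 0.33 and 0.90 ± 0.29 SE, adjusted p = 0.00249 and 0.0386). St6gal1 came next (0.851) and fell in males (-0.65 ± 0.15 SE, adjusted p = 0.00272, edgeR), with no call in females (-0.31 ± 0.13 SE, adjusted p = 0.0985). Zfp449 (0.821) was called in neither sex (-0.15 ± 0.13 and -0.05 ± 0.12 SE, adjusted p = 0.415 and 0.815). The genes most like Npy within groups thus did not share its genotype effect. The female call of Rab3c was lost without the filter on low counts (adjusted p = 0.0852), with plain totals (0.0609) and when 1 library was dropped in 9 of 18 cases (0.0506 to 0.0941), namely without female WT replicate 1, 2, 4 or 5, female S64F/+ replicate 1, 2 or 3, or male S64F/+ replicate 2 or 4.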

How the data were processed

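Counts per gene and library, deposited by the authors, were used as they stand; per the submitters' processing notes the reads were on GRCm38 and STAR, featureCounts, FastQC, MultiQC and DESeq2 were used, with no version or role, while annotation and strand setting were not given in the sources used here. Deposited FPKM values were set aside, since for 31680 of 33506 genes they divide the authors' counts by the sum of all transcript lengths of the gene in GENCODE M21 (within 0.01 base), which for Pyy is 3.19 times the merged exon length; levels between genes are therefore per kb of merged exons. The tables hold 99 spike-ins, all at 0, which were left out.

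The tests used edgeR 4.0.16 in R 4.3.3 (filterByExpr with minimum count 10 and minimum total 15, TMM scaling, robust quasi-likelihood test, 1 coefficient per group, 18 libraries), tested on simulated data. Tests were two-sided with Benjamini-Hochberg adjustment within each contrast and a limit of 0.05, and each SE is the absolute log2 fold change over the square root of F. Alternatives were RLE size factors, plain totals, DESeq2 1.42.0, no filter, the replicate block, the 2 groups alone and each library left out; 2 fits without the libraries with intestinal genes were added after seeing the data. A count of 0 allows 3 counts, for counting error only. Sample titles gave the groups and the replicate numbers. Likeness between genes is the Pearson correlation of deviations of log2 CPM (prior count 2) from the group means, over genes at 1 CPM or more on average. Named genes were the members, up to 4 called genes per direction and up to 2 of the highest level per list, the 3 most like each member, and neighbours; marker genes were named besides, after their values were seen. The members and lists were chosen with earlier results of these data known. Replicate counts differed beyond sampling noise (chi-square per degree of freedom at least 21.7). In females, libraries of the 2 genotypes with equal numbers deviated together (correlations of 0.11 to 0.418, above the limit of 0.1). Female WT replicates 3 and 4, however, correlated more with another number (0.274 and 0.494, against 0.11 and 0.418 with their own). In males the correlations of equal numbers ran from -0.249 to 0.189. The data thus did not settle whether equal numbers are pairs. The main tests used no pairs, and the replicate block was run as an alternative for both sexes.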

Additional observations from a re-analysis of the deposited data

Results flagged for a closer look

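Each of the 6 genes was looked at in each of the 4 groups, which makes 24 sets of values. Of these, 3 held a library far from the others, where chance flags about 1 set in 20. The sets share libraries and are not independent, so this share is only a rough guide. Sct was at 1.32 CPM in male S64F/+ replicate 3, which also carried intestinal genes. Sct was at 0 in female WT replicate 3, the shallowest library of that group, where the other 4 lay at 0.108 to 0.133 CPM. Ghrl was at 27.8 CPM in female S64F/+ replicate 2.

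The genotype effect differed between the sexes by the interaction test for 3 genes of the peptide and receptor lists. The male minus female difference was 3.27 on the log2 scale for Sctr (adjusted p = 0.00434, edgeR), -0.75 for Gcg (adjusted p = 0.0429) and -0.96 for Ucn3 (adjusted p = 0.00391). The difference of Gcg was not called with plain totals (-0.49, adjusted p = 0.112), without the filter (0.0906) or when 1 library was dropped in 13 of 18 cases (0.0506 to 0.0993).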

How the results depend on the processing

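The genotype calls of Npy in both sexes and of Pyy in females held under every alternative run. Ppy in males passed with plain totals (1.17) and DESeq2 (0.97), Pyy in males with plain totals (0.69), and Ppy in females failed without the filter (1.02). Ghrl in males reversed without the libraries with intestinal genes (0.21 without 2 and without all 3). The uncalled interaction of Ppy reversed with plain totals (0.19) and without 2 of those libraries (0.08), and the uncalled male against female difference of Npy1r in S64F/+ islets reversed without all 3 (-0.01).

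With each library left out, log2 fold changes in males were 1.59 to 2.18 for Npy, 0.71 to 1.16 for Ppy, 0.28 to 0.68 for Pyy, 1.11 to 1.74 for Npy1r, 0.15 to 2.14 for Sct and -1.33 to -0.11 for Ghrl. In females they were 2.55 to 2.87, 0.75 to 1.19, 0.76 to 1.06, -0.03 to 0.45, 1.77 to 2.66 and 0.31 to 1.88. Interaction values ran from -0.30 to 0.20 for Ppy, and the sex difference in S64F/+ islets from -0.03 to 0.45 for Npy1r and from -1.54 to 0.41 for Sct.

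Called genes numbered 5071 in males, 3884 in females, 821 for the interaction, 434 for sex in WT and 2962 for sex in S64F/+ islets. With each library left out they ranged over 3956 to 5545, 2935 to 4988, 253 to 2152, 71 to 643 and 1651 to 4298. The female count was 2587 with the 2 groups alone. The interaction count was 481 without the filter, 1928 with DESeq2, and 472 and 1499 without 2 and 3 libraries with intestinal genes. The count for sex in WT was 112 with plain totals, 252 without the filter and 1067 with DESeq2. For sex in S64F/+ islets it was 1969 without the filter and 1557 without 2 libraries with intestinal genes. Plain totals moved the median log2 fold change of all genes to 0.19 in males, and the share of higher calls from 55.6% to 86.4% in males, from 64.2% to 97.2% for the interaction and from 49.6% to 88.1% for sex in S64F/+ islets. The cause of these changes was not tested.

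With the replicate number as a block, Ppy in females lost its call (0.92, adjusted p = 0.1, edgeR), the uncalled interaction of Ppy reversed (0.11), and no other genotype call of the 6 genes changed. The block gave 5101 called genes in males, 3865 in females and 920 for the interaction. Sct did not pass the filter, and has no value, with the 2 groups alone or without all 3 libraries with intestinal genes. In the other named results, 1948 values kept their side of the threshold and direction, 126 fell short of it, 4 passed it and 15 reversed. The depth limits Sct, Npy1r and Ghrl, each with fewer than 10 counts in at least 1 library.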
